A study of Homo sapiens with 6 samples.

Results

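Pirin, encoded by PIR, and the 4 nuclear factor I (NFI) genes NFIA, NFIB, NFIC and NFIX were followed through a transient knockdown of PIR in WM-266.4 cells, an established line from a melanoma metastasis. All probe sets annotated to these 5 gene symbols were taken, whatever their values, which gave 25 of the 54675 probe sets on the Affymetrix HG-U133 Plus 2 array. PIR had 1 probe set, NFIA 7, NFIB 9, NFIC 4 and NFIX 4, and none was shared with another gene. The siPIR cells received a mixture of 4 siRNA duplexes against PIR, the siCTR cells a mixture of 4 non-targeting duplexes, and the cells labelled NO only the transfection reagent Oligofectamine. Duplexes were given at 200 pmol in medium without serum, 24 h after seeding, and RNA was taken 72 h after transfection. For each treatment, RNA from 3 extractions was mixed into 1 pool and hybridised to 2 arrays, so every group is n = 1 pool, its arrays are technical duplicates, and no error for the treatment itself can be given. A single cell line and a single mixture of duplexes against PIR were used.

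Pirin belongs to the cupin proteins, binds iron and is found in the nucleus. It was first isolated as an interactor of NFI transcription factors and was later found to bind BCL3, a nuclear regulator of NF-kB, and its gene is a target of the oxidative stress factor NRF2. NFI proteins bind DNA as homodimers or heterodimers through a shared amino-terminal domain, recognise the palindrome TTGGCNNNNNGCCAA or, more weakly, one arm of it, and activate or repress transcription through divergent carboxy-terminal parts. The family was also described as CCAAT box binding factors, and it is known for roles in brain, lung, muscle and skin development. In the pigment lineage, NFIB is known for its role in melanocyte stem cells.

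The sequences of the PIR promoter and of the NFIA promoter that holds an arm of the NFI palindrome are shown because PIR was the gene targeted and NFIA had lower signal in the siPIR pool than in both control pools. Both are from RefSeq (GRCh38.p14), run 5′ to 3′ on the gene's strand from 250 bases before the start of transcription to 50 after it, and carry in capitals the single arm (TTGGC, or GCCAA on the other strand) and the core of the antioxidant response element bound by NRF2 (TGACNNNGC, or GCNNNGTCA on the other strand). The PIR promoter lies at chrX:15493284-15493583 on the minus strand and the NFIA promoter at chr1:61076977-61077276 on the plus strand.
PIR: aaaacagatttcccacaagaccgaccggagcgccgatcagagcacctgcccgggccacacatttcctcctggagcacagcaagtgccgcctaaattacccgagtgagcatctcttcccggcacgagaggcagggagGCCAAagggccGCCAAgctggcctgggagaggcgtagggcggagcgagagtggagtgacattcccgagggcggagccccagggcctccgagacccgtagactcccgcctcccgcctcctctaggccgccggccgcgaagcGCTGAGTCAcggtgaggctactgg
NFIA: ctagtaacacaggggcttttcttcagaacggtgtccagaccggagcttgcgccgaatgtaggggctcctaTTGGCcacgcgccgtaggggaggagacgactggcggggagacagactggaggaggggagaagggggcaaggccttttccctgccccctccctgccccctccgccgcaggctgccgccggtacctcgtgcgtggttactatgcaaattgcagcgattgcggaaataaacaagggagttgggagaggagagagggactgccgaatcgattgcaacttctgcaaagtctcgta
The PIR promoter held GCCAA 114 and 103 bases before the start and GCNNNGTCA 26 bases after it. The NFIA promoter held TTGGC 180 bases before the start. None of the 20 RefSeq promoters of the 5 genes held the full palindrome, which occurred in 10 of 35116 promoters of 300 bases (0.0285%). A single arm occurred in 10 of the 20 (PIR 1 of 1, NFIA 1 of 3, NFIB 6 of 10, NFIC 0 of 1 and NFIX 2 of 5), against 45.6% of all promoters. The antioxidant core occurred in 3 of the 20, in PIR and in 2 promoters of NFIB, against 13.3% of all. These matches describe letters in a window and are not binding sites.

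Signals are the deposited array intensities, on a linear scale that differs from probe set to probe set, so levels were compared between pools and never between probe sets. The 6 arrays had medians of 64.2 to 74.8 and the same trimmed mean. Because every array was scaled to a common mean, and a pool is a bulk sample, fewer cells expressing a gene and less of its RNA per cell cannot be told apart. Log2 differences were taken between pool means of log2(signal + 5.4), and the range in brackets covers the 4 pairings of single arrays. A probe set was measured when the mean signal of at least 1 pool exceeded 70.2, which held for 29692 probe sets and for 19 of the 25 (PIR 1, NFIA 6, NFIB 6, NFIC 4, NFIX 2). Over all measured probe sets the duplicate arrays of a pool differed by a median of 0.16 on the log2 scale, and by 0.18 over the 18 measured NFI probe sets. A probe set was called lower or higher when its difference reached 2-fold and the duplicates of the compared pools did not overlap. The rule weighs size and array error and tests no treatment.

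PIR, the targeted gene, fell strongly in the siPIR pool. Its probe set, 207469_s_at, read 13990 and 14153 with reagent alone and 13544 and 13180 with non-targeting duplexes, but 392 and 382 in the siPIR pool. The siPIR arrays lay far below all control arrays, and the siPIR signal was 2.90% of the siCTR and 2.75% of the NO signal. The difference was -5.09 [-5.13 to -5.05] from siCTR, a 34.1-fold decrease, and -5.17 [-5.19 to -5.14] from NO, a 35.9-fold decrease. No other measured probe set on the array was as low against either control. The control pools differed by -0.07 [-0.10 to -0.05], siCTR being slightly lower on both arrays. The remaining signal lay above the 70.2 used as the limit for measured probe sets.

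**Figure D1:**
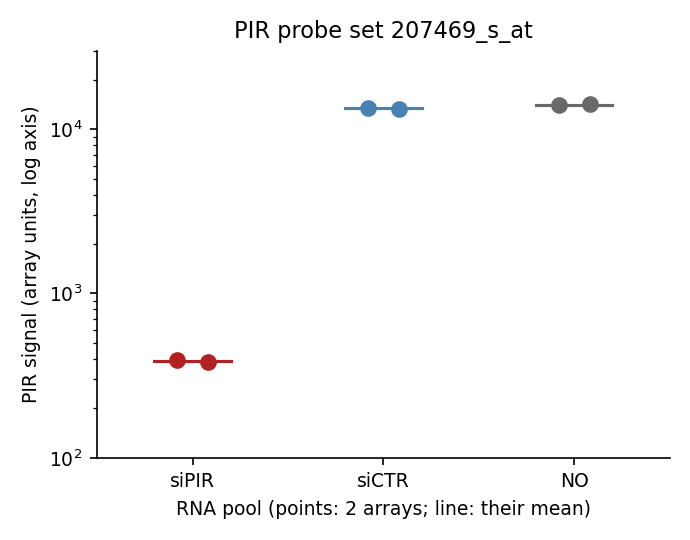
Signal of the PIR probe set on each of the 6 arrays (log axis, array intensity), grouped by siPIR, siCTR and NO, with a line at the pool mean. The siPIR arrays read 382 and 392, and the 4 control arrays between 13180 and 14153.

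NFIA signal was lower in the siPIR pool than in both control pools, though the size differed between its probe sets. Of its 6 measured probe sets, 5 had both siPIR arrays below all 4 control arrays, a pattern that 21.5% of all measured probe sets showed. The 2-fold rule was met against siCTR by 1 of the 6, where 4.14% of all measured probe sets were called lower, and against NO by 3 of the 6, where 6.25% were. A single NFIA probe set, 229994_at, was called against both controls (3.06% of all). The siPIR arrays enter both comparisons, so the comparisons are not separate evidence. The median over the 6 was -0.75 against siCTR and -0.72 against NO, beside 0.05 and -0.01 over all measured probe sets. Of the 6, 229994_at and 1558101_at had siPIR means of 69.45 and 31.95 and were measured only through control pools. Their part in the median, the place of 229994_at among the 5, and its calls are therefore no support for a difference. The other NFIA probe sets ranged from -0.82 to -0.45 against siCTR, all short of 2-fold, and from -1.16 to -0.29 against NO.

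Probe set 229994_at gave 83.8 and 55.1 in siPIR, 167 and 176 in siCTR, and 232 and 224 in NO. The siPIR arrays were below all controls and the siCTR arrays were below the NO arrays. It was called lower at -1.26 [-1.58 to -0.95] from siCTR and -1.67 [-1.97 to -1.36] from NO. This was a dim probe set that passed the limit for measured probe sets only through its control pools, and the call against siCTR was lost without the second siPIR array, at -0.98. Probe set 226806_s_at gave 398 and 400 in siPIR, 724 and 695 in siCTR, and 943 and 861 in NO. Its duplicates lay close together and the 3 pools did not overlap. The difference of -0.82 [-0.85 to -0.79] from siCTR missed the rule, and that of -1.16 [-1.23 to -1.09] from NO met it and kept it when any 1 array was left out, at -1.23 to -1.10. Probe set 224975_at, the brightest for NFIA, gave 408 and 480 in siPIR, 673 and 760 in siCTR, and 842 and 995 in NO, in the same order of pools. It differed by -0.69 [-0.89 to -0.48] from siCTR, and its call against NO, at -1.04 [-1.28 to -0.80], was lost without the first siPIR array or without the second NO array, at -0.92 in both cases.

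The other bright NFIA probe sets showed smaller differences. Probe set 224970_at gave 469 and 592 in siPIR, 670 and 833 in siCTR, and 662 and 626 in NO. It differed by -0.50 [-0.82 to -0.18] from siCTR and by -0.29 [-0.49 to -0.08] from NO, and was not called. Probe set 224976_at gave 477 and 606 in siPIR, 778 and 700 in siCTR, and 616 and 717 in NO. Its differences of -0.45 and -0.30 were not called. For both, siPIR was the lowest pool, and the siCTR pool mean lay above the NO mean (0.21 and 0.15), whereas for 229994_at, 226806_s_at and 224975_at it lay below (-0.40, -0.34 and -0.35). The control arrays of 224976_at overlapped, at 0.15 [-0.04 to 0.33], and those of 224970_at barely separated, at 0.21 [0.02 to 0.41]. Probe sets of NFIA thus differed in the order of the control means, for 224976_at within array error. As low a value as that of 229994_at was seen in 2.66% of measured probe sets against siCTR and 1.65% against NO, and as low a value as that of 224970_at in 14.5% and 30.5%.

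Arrays overlapped for the dim probe set 1558101_at, which was measured only through the siCTR pool and gave 56.2 and 7.7 in siPIR, 119 and 39.2 in siCTR, and 60.3 and 15.7 in NO. Its difference of -1.39 [-3.25 to 0.47] from siCTR was within the gap between duplicates. The seventh NFIA probe set, 1557639_at, was below the limit, with signals from 10.8 to 64.5 over the 6 arrays. With the rule relaxed to 1.5-fold, 3 of the 6 measured NFIA probe sets were lower against both controls, as were 7.66% of all measured probe sets. The 3 were 224975_at, 226806_s_at and 229994_at. The last was measured only through its control pools, so its place in this count is no support for a difference. Under quantile normalization of the 6 arrays, in place of the scaling as deposited, the differences of 226806_s_at were -0.83 from siCTR and -1.16 from NO.

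**Figure D2:**
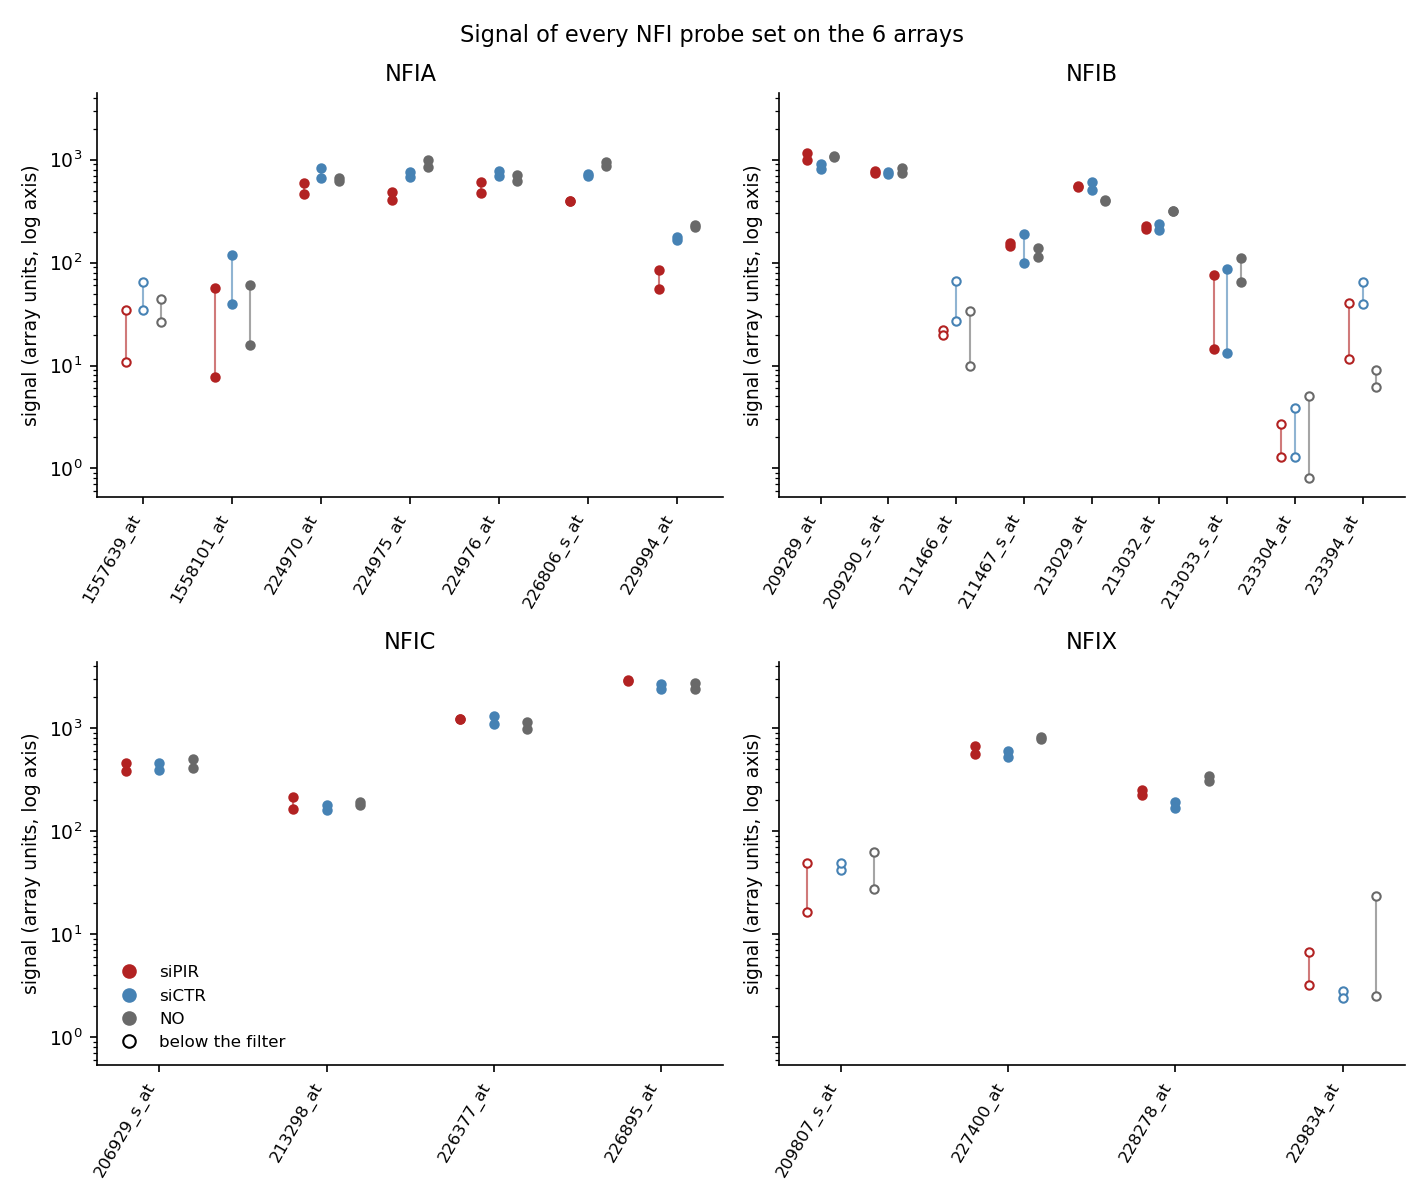
Signal of all 24 NFI probe sets on each array (log axis, array intensity), 1 panel per gene, with arrays coloured by pool, duplicates joined by a line and open circles for probe sets below the limit. In the NFIA panel the siPIR points of 5 of the 6 measured probe sets lie below all control points, and in the NFIB, NFIC and NFIX panels no measured probe set was called.

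NFIB, the member linked to melanocyte stem cells, had no measured probe set with siPIR arrays below those of both controls. Probe set 209289_at, the brightest for this gene, gave 993 and 1161 in siPIR, 820 and 897 in siCTR, and 1060 and 1087 in NO. The siPIR arrays were above both siCTR arrays, by 0.32 [0.15 to 0.50], and overlapped with the NO arrays, from which they differed by less than 0.01 [-0.13 to 0.13]. Probe set 209290_s_at gave 781 and 740 in siPIR, 753 and 725 in siCTR, and 823 and 742 in NO. Its differences of 0.04 and -0.04 were smaller than the gaps between duplicates.

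Further probe sets of NFIB separated NO from both transfected pools rather than siPIR from its controls, and in opposite directions. Probe set 213029_at gave 558 and 539 in siPIR and 601 and 502 in siCTR, but 399 and 408 in NO, so that siPIR was 0.44 [0.40 to 0.48] above NO and siCTR 0.44 [0.30 to 0.58] above it. Probe set 213032_at gave 226 and 210 in siPIR, 209 and 238 in siCTR, and 316 and 314 in NO, so that the pools were -0.52 and -0.49 from NO. Between siPIR and siCTR arrays of both probe sets overlapped, at -0.00 and -0.03. As high a value as that of 213029_at was seen in 18.5% of measured probe sets for siPIR against NO and 6.80% for siCTR against NO. As low a value as that of 213032_at was seen in 18.8% and 13.2%.

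Probe set 211467_s_at of NFIB gave 154 and 144 in siPIR, 188 and 98.5 in siCTR, and 114 and 139 in NO. The siPIR pool stood 0.24 [0.05 to 0.42] above NO and inside the siCTR duplicates. Duplicates of 213033_s_at stood too far apart to compare pools, at 14.6 and 75.4 in siPIR and 13.1 and 86.4 in siCTR. The remaining NFIB probe sets, 211466_at, 233304_at and 233394_at, were below the limit, with signals of 0.8 to 65.6. Over the 6 measured probe sets the median difference was 0.02 from siCTR and -0.02 from NO, and 0 of 6 were called in either comparison, where 8.52% of all measured probe sets were called against siCTR and 9.99% against NO, counting both directions.

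NFIC, an NFI member known for its role in tooth root formation, differed little between the pools. Probe set 226895_at gave 2887 and 2914 in siPIR, 2396 and 2714 in siCTR, and 2759 and 2379 in NO. The siPIR arrays were the highest of the 6, by 0.19 [0.09 to 0.28] over siCTR and 0.18 [0.07 to 0.29] over NO, below the 2-fold rule. Probe set 226377_at gave 1217 and 1236 in siPIR, 1306 and 1100 in siCTR, and 1147 and 987 in NO, overlapping with siCTR (0.03) and above NO by 0.20 [0.08 to 0.32]. For 206929_s_at (387 and 454 in siPIR, 390 and 454 in siCTR, 499 and 409 in NO) and 213298_at (165 and 216 in siPIR, 178 and 159 in siCTR, 180 and 193 in NO), the siPIR arrays overlapped with those of both controls. For 213298_at the siCTR arrays lay below the NO arrays, by -0.14 [-0.27 to -0.01]. None of the 4 was called against either control, and their median differences were 0.10 and 0.10.

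NFIX, known for its role in muscle and neural development, was lower in both transfected pools than with reagent alone. Probe set 227400_at gave 673 and 563 in siPIR, 523 and 604 in siCTR, and 827 and 786 in NO. The transfected pools overlapped each other, at 0.13 [-0.10 to 0.36], and both lay below NO, by -0.39 [-0.55 to -0.22] for siPIR and -0.52 [-0.66 to -0.38] for siCTR. Probe set 228278_at gave 226 and 249 in siPIR, 169 and 190 in siCTR, and 305 and 346 in NO. Its 3 pools did not overlap, with siPIR 0.39 [0.24 to 0.54] above siCTR and -0.45 [-0.60 to -0.29] from NO, and siCTR -0.84 [-1.01 to -0.67] from NO. The direction of the NFIX difference thus depended on the control used, and 0 of the 2 measured probe sets were called. As low a value as that of 227400_at was seen in 24.9% of measured probe sets for siPIR against NO and 12.3% for siCTR against NO. For 228278_at these shares were 22.1% and 5.80%. The other probe sets, 209807_s_at and 229834_at, were below the limit, with signals from 16.3 to 63.1 and from 2.4 to 23.3.

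**Figure D3:**
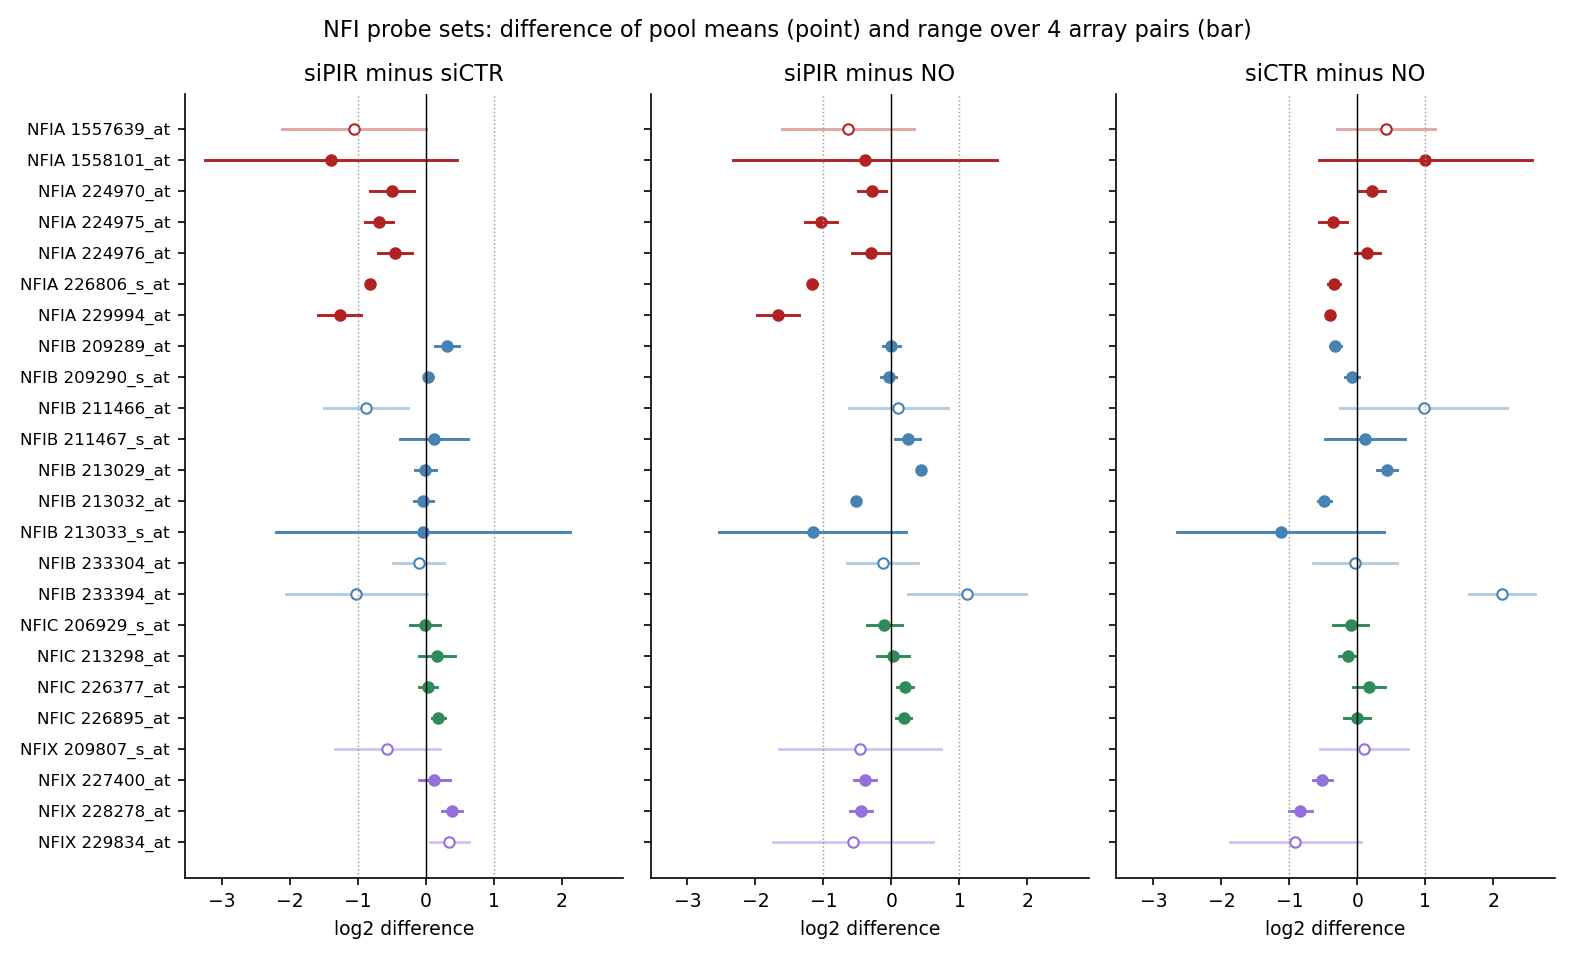
Log2 difference between pools (siPIR minus siCTR, siPIR minus NO, siCTR minus NO) for each NFI probe set, with bars covering the 4 pairings of arrays, dotted lines at 2-fold and open circles for probe sets below the limit. In the siPIR panels the measured NFIA probe sets lie between -1.67 and -0.29, and measured NFIX probe sets lie above 0 against siCTR and below 0 against NO.

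Set against one another, the control pools gave no call for any of the 19 measured PIR and NFI probe sets, where 4.81% of all measured probe sets were called in either direction. The largest of these differences between non-overlapping arrays was that of NFIX 228278_at. The 12 measured probe sets of NFIB, NFIC and NFIX had 0 calls against siCTR or NO, where 8.52% and 9.99% of all measured probe sets were called. Their largest difference from siCTR was 0.39. From NO it was -1.16 [-2.53 to 0.21] for NFIB 213033_s_at, whose arrays overlapped, and -0.52 for NFIB 213032_at among those that did not overlap. Whether NFIA differed from the other NFI genes was not tested, since each treatment had 1 pool.

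A limma fit on the 3 pool means, with siPIR set against siCTR and NO as if they were repeats and 1 residual degree of freedom, called 0 of the 29692 measured probe sets after Benjamini-Hochberg adjustment, although 4844 had an unadjusted p below 0.05. PIR had a limma adjusted p of 0.248, and the NFIA probe sets 0.250 to 0.451. Among the 14864 probe sets with a pool mean above 458.4, the same fit called 2952 (19.9%). Of the 11 PIR and NFI probe sets in that range it called 3, those of PIR and NFIA 226806_s_at and 224975_at. These had siPIR means of 387, 399 and 444 and passed the limit only through the control pools, where they were high, so their calls are no support for a difference. NFIA 224970_at and 224976_at, above the limit in every pool, were not called (limma adjusted p of 0.140 and 0.141), and the NFIB, NFIC and NFIX probe sets had 0.45 to 0.999. The siPIR side of the fit is a single pool. The spread in this fit is that between 2 kinds of control, which are different treatments.

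The measured genes of the NF-kB branch had no call, and BCL3, the pirin partner in it, was not among them. Of 7 genes listed for the BCL3 and NF-kB branch, 6 were measured and 0 were called against both controls, where 3.22% of 13071 measured genes were called lower and 1.52% higher, each gene taken by its brightest probe set. NFKB2, a NF-kB subunit precursor, gave 385 and 416 in siPIR against 194 and 312 in siCTR and 269 and 223 in NO, above all controls by 0.69 and 0.69 without reaching 2-fold. Over its 2 measured probe sets the difference was 0.51 to 0.69 from siCTR and 0.69 to 1.17 from NO. SNAI2, a transcription factor of melanoma cell migration, gave 4391 and 4711 in siPIR, below 5648 and 5790 in siCTR and 5613 and 5495 in NO, at -0.33 and -0.29. NFKB1 stood at -0.30 and -0.24, RELB at 0.10 and 0.19, and RELA, which gives a transactivating subunit, at 0.09 and 0.21. BCL3 itself had no probe set annotated to it alone and was not analysed here. The median of the 6 was 0.06 against siCTR and -0.03 against NO, beside 0.05 and 0.03 over all measured genes.

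Regulators and targets of NRF2, the factor upstream of PIR, likewise had no call in 12 measured of 14 listed, with medians of 0.18 and 0.19. MAFF, a small MAF partner of NRF2, gave 1859 and 1705 in siPIR, below 2977 and 3043 in siCTR and 2837 and 2815 in NO, at -0.76 and -0.67. Its other measured probe set gave -0.38 and -0.08. OSGIN1, an oxidative stress response gene, stood at 0.59 and 0.70, with overlapping siCTR arrays. KEAP1, which marks NRF2 for degradation, stood at 0.26 and 0.26, and NFE2L2, which encodes NRF2, at -0.03 and -0.11. MAFG and GCLM, a small MAF and a glutathione synthesis gene, stood at 0.39 and 0.23, and at 0.29 and 0.15.

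Among 8 proteins known to bind NFI factors, 5 were measured and 0 were called, with medians of 0.07 and 0.10. NKX2-1, a lung and thyroid factor, was dim and its arrays overlapped, at 0.56 and -1.03. H3-3A, a gene for histone H3.3, stood at 0.51 and 0.21, its siPIR arrays above those of siCTR and overlapping with NO. NR3C1, the glucocorticoid receptor, stood at 0.07 and 0.13, and GTF2B, the general factor TFIIB, at 0.06 and 0.10. SKI, a corepressor that binds NFI, stood at -0.58 and -0.04, with the control pools 0.54 apart. Its 3 measured probe sets disagreed, ranging from -0.99 to 0.07 from siCTR, from -2.57 to -0.04 from NO, and from -1.57 to 0.54 between the controls.

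Genes reported in other tissues as regulated by NFI factors did not move in one direction. The list, written from general knowledge, held 33 genes, of which 22 were measured and 11, among them the astrocyte gene GFAP and the cerebellar gene GABRA6, were below the limit. Against both controls 1 fell and 1 rose, where 3.22% of all measured genes were called lower and 1.52% higher. These counts show nothing particular to the list. Its medians were -0.00 and 0.11, beside 0.05 and 0.03 over all measured genes. EZH2, a histone methyltransferase listed for its reported link to NFIB, gave 491 and 617 in siPIR, 1289 and 1412 in siCTR, and 1411 and 1412 in NO. It was called lower at -1.28 and -1.35, and the control pools differed by -0.06. CDKN1A, the cell cycle inhibitor p21, gave 9040 and 9077 in siPIR, 4200 and 4228 in siCTR, and 3456 and 3568 in NO, and rose by 1.10 and 1.37.

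Other genes of this list stayed within 2-fold of at least 1 control. COL1A2, a collagen chain, gave 23527 and 22582 in siPIR, 14205 and 15381 in siCTR, and 12247 and 12265 in NO. Its pools did not overlap, and siPIR stood at 0.64 and 0.91. ENO3, a muscle enolase, stood at 0.85 and 0.52, and NFATC4 at 0.47 and 0.65. The 2 measured probe sets of NFATC4 disagreed, ranging from -0.05 to 0.47 from siCTR and from -1.36 to 0.65 from NO. FABP7, a brain lipid-binding protein and NFI target in glioma cells, stood at -0.45 and -0.62. Against NO alone INSC fell by 1.25 and SLC1A3, a dim glutamate transporter gene measured only through siCTR, rose by 1.59, where 5.48% of all measured genes were called lower and 3.67% higher. For both the siCTR pool was also called against NO, at -1.03 and 2.04, as were 3.51% of all measured genes.

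Of 8 melanoma and melanocyte factors linked to NFIB, all were measured. EZH2 alone was called lower against both controls, as were 3.22% of all measured genes. SOX10, the neural crest factor of the lineage, gave 8682 and 8935 in siPIR, 6760 and 7322 in siCTR, and 5982 and 6018 in NO, at 0.32 and 0.55. ZEB1 stood at -0.39 and -0.22, POU3F2 (BRN2), placed upstream of NFIB in melanoma, at 0.29 and 0.21, and MITF, the melanocyte master factor, at -0.07 and -0.20. Over the 2 measured probe sets of POU3F2 the difference was 0.29 to 0.35 from siCTR and -0.20 to 0.21 from NO. The medians of the 8 genes were 0.02 and -0.04.

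**Figure D4:**
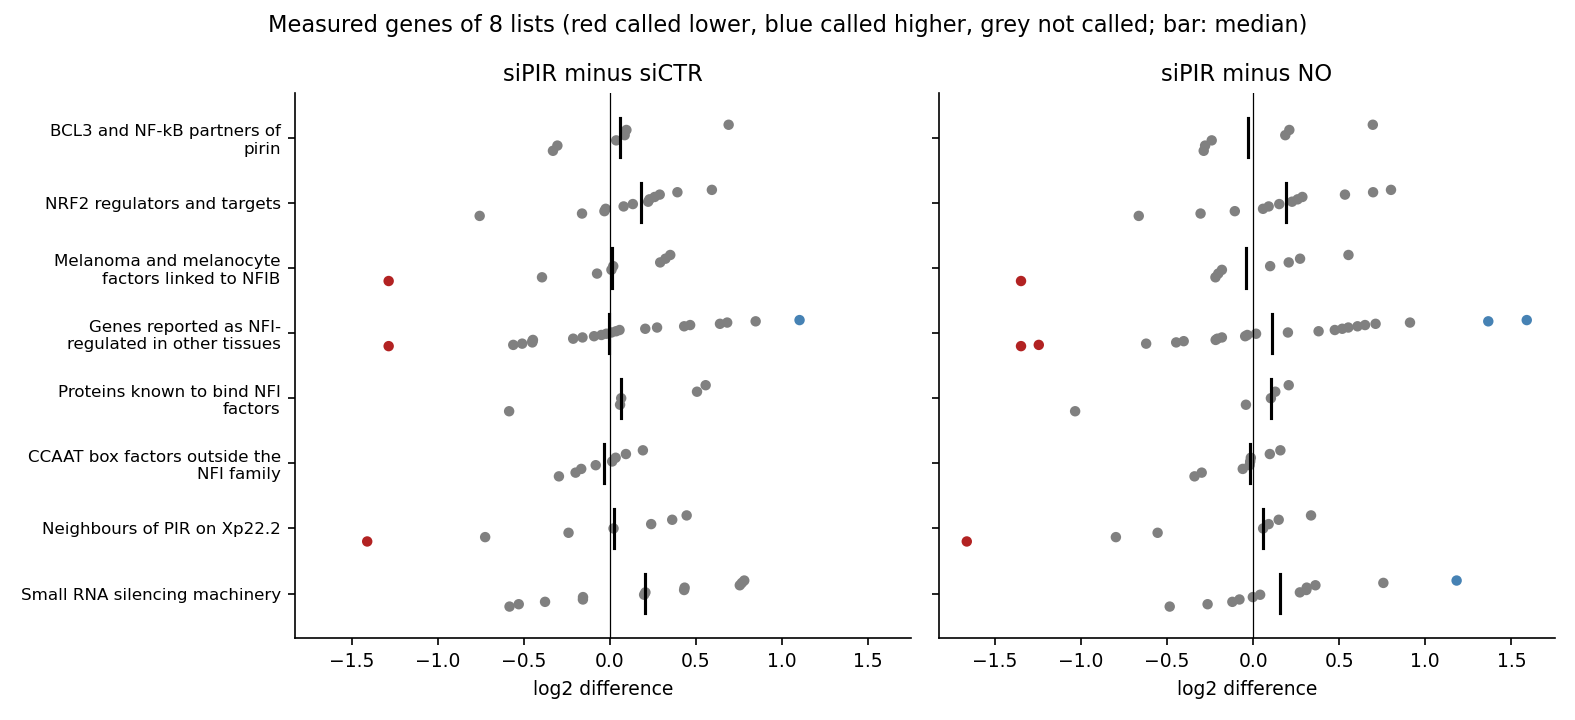
Log2 difference of siPIR from siCTR and from NO for the measured genes of 8 lists, 1 point per gene at its brightest probe set, red where called lower and blue where called higher, with a bar at the list median. Medians lie between -0.04 and 0.20, and the genes called against both controls are EZH2 (in 2 lists), CDKN1A and FANCB.

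The full NFI palindrome described above was used to ask whether genes that carry it stood apart in these pools. Of the 10 promoters, 6 belonged to measured genes, and their sites, shown to give the letters of each match with its 2 arms in capitals, were as follows.
ACAT1: TTGGCtgccgGCCAA
ATP2B4: TTGGCctcgcGCCAA
HERC5: TTGGCcgcctGCCAA
MIR99AHG: TTGGCacttgGCCAA
MYO10: TTGGCggaggGCCAA
ZNF530: TTGGCgtggaGCCAA
These lay 22 to 156 bases before the start. The bright genes ACAT1, a mitochondrial thiolase, and MYO10, an unconventional myosin, stood at -0.02 and -0.09, and at -0.00 and 0.16. ATP2B4, a plasma membrane calcium pump, stood at -0.19 and -0.47, HERC5, the ligase for the ubiquitin-like ISG15, at -0.47 and -0.82, and MIR99AHG, the host of a miRNA cluster, at 0.26 and 0.05. ZNF530, a zinc finger gene, was the 1 of 6 called lower against both controls, at -1.28 and -1.35, but its siPIR arrays read 111 and 22.0 beside 121 to 153 in the controls, and it was measured only through the control pools. The medians of the 6 were -0.10 and -0.28, beside 0.04 and 0.04 over the 10589 measured genes with a promoter sequence. Of those 10589, 3.10% were called lower against both controls. ZNF530 enters the medians of the 6, and its part in them and its call are no support for a difference. Whether genes with the palindrome stood apart was not tested. HERC5 and a non-coding gene start within the same window on opposite strands, so their sites are one.

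Single arms were too frequent to single genes out. Of 5852 measured genes with at least 1, 219 (3.74%) were called lower and 81 (1.38%) higher against both controls, beside 3.10% and 1.43% of all 10589. A split made after the values were seen gave 110 of 2169 genes (5.07%) called lower with 2 or more arms. GCCAA overlaps the CCAAT box, and 117 of 2452 genes (4.77%) were called lower where an arm stood within GCCAAT. With an arm and no CCAAT the count was 64 of 2380 (2.69%), with CCAAT and no arm 24 of 1077 (2.23%), and with neither 85 of 3660 (2.32%). Genes with an arm outside GCCAAT and a CCAAT elsewhere are in none of these groups, so the groups do not add up to the 10589. The genes called higher were 1.26% with an arm within GCCAAT, 1.30% with an arm and no CCAAT, 1.58% with CCAAT and no arm, and 1.45% with neither. The groups by CCAAT were not planned in advance either, and the shares were not tested. The CCAAT box is also bound by other factors, and of 9 listed outside the NFI family 8 were measured and 0 were called. Among them CEBPZ stood at -0.30 and -0.30, NFYB at -0.20 and -0.34, CEBPB at 0.09 and 0.16, NFYC at -0.08 and -0.06, and YBX1 at 0.03 and -0.02.

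Genes with the nearest pattern over the 3 pools were found by the Euclidean distance of centred log2 pool means among 13071 measured genes. With 3 pools, a small distance is common and gives no more than similar differences. For PIR no gene came near. The closest were LIN9 (distance 1.73), SPOCK2 (1.82) and SHCBP1 (1.88), and for SHCBP1 the pool means were 2199 in NO, 2209 in siCTR and 306 in siPIR, giving -2.83 and -2.83. LIN9 and SPOCK2, with siPIR means of 27.1 and 6.65, were measured only through the control pools. For NFIA, taken by 224975_at, ETNK1 (0.0112), UGDH (0.0132) and RMDN2 (0.0139) came nearest, ETNK1 with means of 1005, 1640 and 2095. PIGZ, BLTP3B and UBTF were nearest to NFIB, SNAP47, MYG1 and ASCC2 to NFIC, and RPL10L, DAO and LINC01812 to NFIX, all within 0.01.

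The pools were checked for what they hold. Of 8 melanocyte lineage markers 7 were measured and 0 were called, and their summed signal was 102304 in siPIR, 98092 in siCTR and 100360 in NO. Of 5 fibroblast markers 3 were measured, while DCN and PDGFRA were below the limit. The signal summed over the 5 was 12652 in NO, 15184 in siCTR and 23456 in siPIR, with COL1A2 as given above, COL1A1 at -0.09 and 0.71, and LUM at -0.44 and -0.61. CD14, the 1 measured of 5 leukocyte markers, had means of 92.2 in NO, 150 in siCTR and 282 in siPIR, and was called higher against NO (1.64) and not against siCTR (0.88). Of 5 endothelial markers 2 were measured, PECAM1 at 0.91 and -0.02 and KDR at 0.10 and -0.59, and KRT10, the 1 measured of 5 keratinocyte markers, stood at -0.37 and -0.32. The 3′ to 5′ ratio of ACTB, a sign of RNA quality, was 1.13 on both siPIR arrays and 1.23 to 1.27 on the control arrays, and that of GAPDH 0.904 to 0.908 and 0.919 to 0.972. The part of these in the differences above was not tested.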

How the data were processed

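Total RNA pools of WM-266.4 cells (siPIR, siCTR, NO) were read on 2 arrays each, from labelling of 1 mixture of 3 extractions per group. The authors deposited linear intensity values, 1 for each probe set and array, made with GCOS, the Affymetrix array software, per the submitters' processing notes. For GCOS, neither version nor settings were found. After trimming 2% of probe sets at each end, every array averaged 500, as global scaling leaves it. The array number limits the precision. All 6 columns were matched to samples, with 0 unmatched. A probe set was named from the platform's annotation, which can be old, where it lists 1 gene (41097 probe sets; 1801 list several and 11777 none), with symbols checked against RefSeq through Entrez identifiers (99.9% matched, 0 changed). The suffixes _s_at and _x_at mark probes that can match several transcripts or genes.

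Signals were transformed as log2(value + 5.4), the 10th percentile of all values being the pseudocount, so fold changes of dim probe sets are understated. Measured probe sets had a pool mean above 70.2, the median of all values. Duplicates were averaged on the log2 scale. Calls needed a 2-fold difference and non-overlapping arrays. The limma fit (version 3.58.1, R 4.3.3) used lmFit and eBayes on 3 pool means, with Benjamini-Hochberg adjustment at 0.05 over all probe sets tested. A run on simulated arrays gave both control pools the same mean, unlike the real pools, so it says nothing about the error of this fit. Other steps used Python 3.11.15.

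The 5 genes and the gene lists were chosen with earlier results of these data known, and list contents come from general knowledge. From each list, genes called against both controls and up to 4 measured genes with the largest smaller difference from the 2 controls were named. RELA, NFE2L2, GCLM, SKI, INSC, SLC1A3, NFATC4, FABP7, GFAP, GABRA6, MITF, YBX1, DCN, PDGFRA, CD14, AGO2 and XPO5 were chosen after their values were seen. The 3 genes nearest in pattern were named for each member. Promoter motifs were searched on both strands. Alternatives were another pseudocount, filter, normalization, probe set choice and size rule, and leaving out each array.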

Additional observations from a re-analysis of the deposited data

How the results depend on the processing

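No paired analysis was possible because the arrays of a group are repeat hybridisations of 1 pool, averaged before any comparison, and the calls come from no test. The PIR difference from siCTR was -5.03 with 4 times the pseudocount, and that from NO was -5.11 with it and -5.21 under quantile normalization. The count of called PIR and NFI probe sets against siCTR was 2, and became 1 with the limit at the 75th percentile, 1 without _x_at and _s_at probe sets (which drops PIR), 4 at 1.5-fold, and 1 to 4 when leaving out each array. Against NO it was 4, and became 3 with the limit at the 75th percentile and 2 without _x_at and _s_at probe sets. It was 4 to 5 when leaving out each array, and 5 with no filter, where NFIB 233394_at was called higher at 1.11. Between the control pools it was 0, became 1 with no filter (NFIB 233394_at, a dim probe set) and 1 at 1.5-fold, and was 0 to 2 when leaving out each array. The unchanged rule called 8.52% of all measured probe sets against siCTR, 9.99% against NO and 4.81% between the controls. At 1.5-fold, 3080 of all 29692 were lower and 3503 higher against siCTR, and 2452 lower and 951 higher between the controls. For the other filters, the probe set choice and the left-out arrays no such share is given, so those counts show nothing particular to the members. The count past limma was 0, and 3 with the limit at the 75th percentile, but those 3 passed that limit only through the control pools, so this change shows nothing about stability. Of 80 alternative values of the NFI gene differences, 2 moved by more than the duplicate error, both for NFIB taken as the mean over its probe sets, at 0.07 from siCTR and -0.17 from NO. Values with 1 array left out stay inside the range over array pairs by construction. They equal the main value where the array belongs to a pool outside the comparison. Most of the 80 therefore could not move, and the count is no measure of stability. Quantile normalization turned 1048 lower and 381 higher calls between siCTR and NO over all probe sets into 779 and 547. The NFIB difference from NO, at -0.00, took the other sign in 4 of its 10 alternative settings. Duplicates of dim probe sets could lie far apart, by up to 2.31 on the log2 scale for NFIB 213033_s_at.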

Other observations

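Because both transfected pools carried siRNA, genes of the small RNA silencing machinery were described as well. Of 13 listed, 12 were measured and 0 met the 2-fold rule against both controls; the medians were 0.20 from siCTR and 0.16 from NO. DICER1, the enzyme that cuts small RNA precursors, gave 5602 and 5621 in siPIR, 4070 and 4228 in siCTR, and 2143 and 2847 in NO. The 3 pools did not overlap, and DICER1 rose by 1.18 against NO, stood 0.44 above siCTR, and siCTR stood 0.75 above NO. TNRC6C, a scaffold of the silencing complex, stood at 0.78 and 0.76 in siPIR, and AGO1, an Argonaute protein, at -0.53 and -0.49. TNRC6B stood at 0.77 and 0.36, XPO5, which exports miRNA precursors from the nucleus, at 0.43 and 0.31, and AGO2, the Argonaute that cuts the siRNA target, at 0.20 and 0.04.

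Among genes next to PIR on chromosome X, FANCB alone was called against both controls, where 3.22% of all measured genes were called lower. Of 13 listed neighbours 7 were measured, with medians of 0.02 and 0.06. FANCB, a Fanconi anaemia gene of DNA crosslink repair, gave 51.7 and 52.7 in siPIR, 155 and 141 in siCTR, and 206 and 153 in NO, and was called lower at -1.41 and -1.66. Its siPIR mean of 52.2 was under the limit of 70.2, so this probe set was measured only through the control pools. It has 4 measured probe sets, of which 3 were called lower against both controls. PIGA, which starts the synthesis of membrane anchors, gave 820 and 813 in siPIR, 1283 and 1424 in siCTR, and 1407 and 1440 in NO, below both controls by less than 2-fold (-0.72 and -0.80). ZRSR2, a splicing factor, stood at 0.36 and 0.34, and GRPR, a peptide receptor, at -0.24 and -0.56 with overlapping arrays.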
